A study of Homo sapiens with 3 samples.

Results

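The genes described here were 35 aminoacyl-tRNA synthetases, the enzymes that join each amino acid to its tRNA. They were found by matching Ensembl identifiers to gene symbols, and they made up 35 of the 58333 genes in the expression table. By symbol, 19 were taken as cytosolic, namely the enzymes whose symbol ends in 1 together with FARSA and FARSB, and 16 as mitochondrial, those whose symbol ends in 2. The values came from poly(A)+ RNA of Cal62, an established human thyroid cancer cell line, transfected with a control siRNA (siControl) or with 1 of 2 siRNAs against ADAR1 (siADAR1 #1 and siADAR1 #2). ADAR1 is the enzyme that converts adenosine to inosine in double-stranded RNA. All 3 groups shared the cell line and the transfection, and no group was left without siRNA. Each group had 2 libraries, which the study's methods give as independent biological replicates, so every p-value rests on the spread between 2 libraries per group of 1 line.

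Each synthetase recognises a single amino acid and the tRNAs that decode it, and most cells use separate nuclear genes for the cytosolic and the mitochondrial enzyme. Some genes serve both compartments, and GARS1 and KARS1, which the rule places on the cytosolic side, are known to do so. Several cytosolic enzymes sit together in the multi-synthetase complex, held by scaffold proteins. Many cytosolic synthetase genes are known targets of ATF4, the transcription factor that is translated when eIF2 is phosphorylated in the integrated stress response. ATF4 binds DNA composite elements that join parts of a C/EBP site and an ATF site, and WARS1 is also known as an interferon-induced gene.

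Since members of a family that shared a response could share a promoter element, the RefSeq promoters (GRCh38.p14, 250 bases before to 50 bases after the start) of 30 members were searched on both strands for the letters TGATGNAA, the core of such an ATF4 element. AARS2, LARS1, VARS1, VARS2 and YARS1 had no entry. The letters were found in 6 of 16 cytosolic promoters and 1 of 14 mitochondrial ones, against 3.67% of all 27305 promoters. All 6 cytosolic matches read TGATGCAA or its reverse complement TTGCATCA, a form found in 0.923% of all promoters and looked for after the windows had been read. The 7 windows are printed 5′ to 3′ on the strand of the gene, with the matching letters in capitals, because these genes can then be compared with the cytosolic genes that moved most.
AARS1: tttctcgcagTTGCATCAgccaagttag
CARS1: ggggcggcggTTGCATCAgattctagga
IARS1: tttcagcgcgTTGCATCAcctccgtgcg
MARS1: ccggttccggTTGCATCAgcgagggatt
NARS1: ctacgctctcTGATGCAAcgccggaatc
TARS1: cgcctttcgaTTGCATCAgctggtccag
YARS2: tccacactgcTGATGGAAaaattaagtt
The windows lie at chr16:70289676-70289703 (minus strand) for AARS1, chr11:3057408-3057435 (minus) for CARS1 and chr9:92293693-92293720 (minus) for IARS1. Those of MARS1 and NARS1 lie at chr12:57488054-57488081 (plus) and chr18:57621805-57621832 (minus). Those of TARS1 and YARS2 lie at chr5:33440957-33440984 (plus) and chr12:32756077-32756104 (minus). Positions are counted from the start in the RefSeq table, which for several genes lies inside the longer GENCODE gene span given with the values. The match began close to the RefSeq start in CARS1, IARS1, MARS1, NARS1 and TARS1, and 187 and 197 bases before it in AARS1 and YARS2. GARS1 and WARS1 held none of these letters in the window, which says nothing of the rest of the gene.

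The depth was 30114840 to 50029763 reads on genes per library. All 35 members passed the filter on low values, with at least 157 reads in every library. Levels below are normalized counts, recovered from the deposited log2 values, and a gene was called changed at an adjusted p-value under 0.05 with a log2FC beyond 0.5. ADAR, the targeted gene, had 10906 and 11701 normalized counts in siControl, against 1328 and 2246 with siADAR1 #1 and 1663 and 2928 with siADAR1 #2, so the labels and the data went together. Of the markers of thyroid epithelium, PAX8, KRT8 and KRT18 were present, while NKX2-1 had 0 reads in every library. The summed level of 6 markers of other cell types was 280 and 462 normalized counts in siControl, against 462 and 656 with siADAR1 #1 and 832 and 1594 with siADAR1 #2. CD3E, which marks T cells, was at 0, and PTPRC, which marks leukocytes, had at most 5 reads. Most of the summed level in every library was CD68, a macrophage marker. It had 245 and 417 normalized counts in siControl, 425 and 610 with siADAR1 #1 and 796 and 1566 with siADAR1 #2. CD68 was upregulated with siADAR1 #2 and not called with siADAR1 #1, and its part in the results was not tested. In bulk RNA, fewer cells that express a gene and less of its RNA per cell cannot be told apart.

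In siControl, the cytosolic genes were the more abundant side. Per kilobase of transcript, the siControl level ran from 589 normalized counts in FARSB to 7362 in KARS1 among the cytosolic genes, with a median of 2779. Among the mitochondrial genes it ran from 113 in PARS2 to 2019 in IARS2, with a median of 511. For 13 amino acids both genes were measured, and the cytosolic gene was the higher per kilobase in 13 of 13. The ratio of the levels per kilobase was lowest for cysteine, at 1.21, and highest for threonine, at 12.0.

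With siADAR1 #1, 8 of the 35 members were called, 5 upregulated and 3 downregulated, where 16.8% of the 20858 genes tested were called (6.18% upregulated and 10.6% downregulated). With siADAR1 #2, 11 members were called, 5 upregulated and 6 downregulated, where 26.6% of all genes were called (11.1% upregulated and 15.5% downregulated). For the family as a whole these counts were near the background. All the members upregulated against siControl were cytosolic, apart from CARS2 with siADAR1 #2 under some alternatives, given with that gene. On the cytosolic side 5 of 19 were upregulated and 1 downregulated with siADAR1 #1, and 5 were upregulated and 3 downregulated with siADAR1 #2. On the mitochondrial side 0 of 16 were upregulated with either siRNA, while 2 were downregulated with siADAR1 #1 and 3 with siADAR1 #2. Both comparisons share the siControl libraries. The count with siADAR1 #1 was 2 without siControl replicate 1, 3 without siControl replicate 2 and 5 without siADAR1 #1 replicate 1, where 1.88%, 5.98% and 6.77% of all genes were called. The count with siADAR1 #2 was 7 without siControl replicate 1 and also 7 without siADAR1 #2 replicate 1, where 15.1% and 15.5% of all genes were called.

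**Figure D1:**
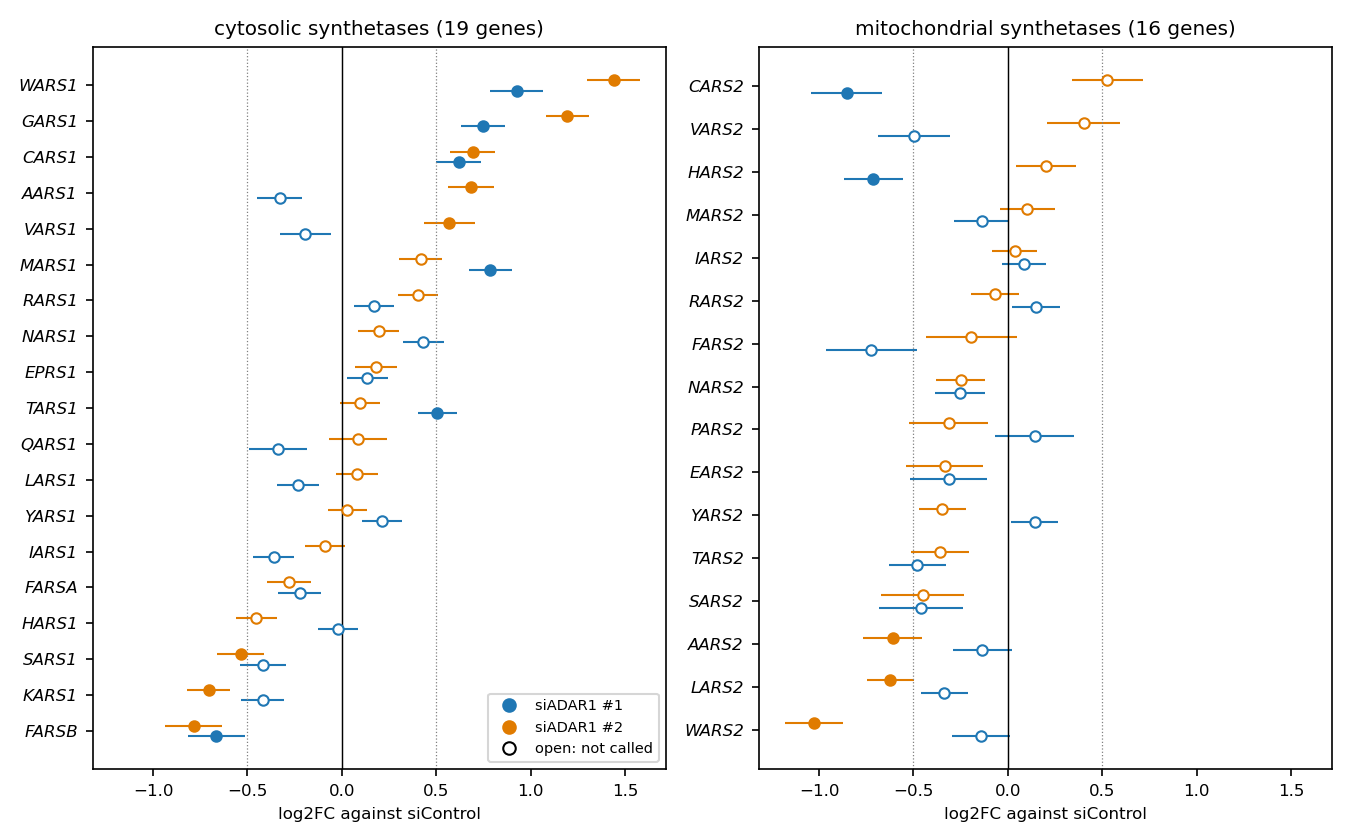
Log2FC against siControl (horizontal axes) of the 19 cytosolic genes (left) and the 16 mitochondrial genes (right), with 1 point per siRNA, the standard error of the fit as bars, filled points for called genes and dotted lines at the 0.5 limit. Filled points on the right of 0 appear only in the cytosolic panel, with WARS1 and GARS1 farthest, and WARS2 with siADAR1 #2 lies farthest to the left.

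The cytosolic enzymes for tryptophan, glycine and cysteine were upregulated with each siRNA, and 1 subunit of the phenylalanine enzyme was downregulated with each. WARS1 (ENSG00000140105, GRCh38 chr14:100333790-100376805, minus strand), the cytosolic tryptophanyl-tRNA synthetase, had 1887 and 1543 normalized counts in siControl, against 3033 and 3468 with siADAR1 #1 and 4589 and 4680 with siADAR1 #2. The 3 groups did not overlap, and siADAR1 #2 was highest. Its log2FC was 0.93 (SE 0.14, adjusted p = 0.00582) with siADAR1 #1 and 1.44 (SE 0.14, adjusted p = 0.000488) with siADAR1 #2. Exons of genes on the other strand, among them WDR25, cover 10.6% of its exon bases. GARS1 (ENSG00000106105, chr7:30580533-30634033, plus strand), the glycyl enzyme of both compartments, had 6631 and 7424 normalized counts in siControl, against 11754 and 11803 with siADAR1 #1 and 17149 and 15059 with siADAR1 #2. Its groups did not overlap either, and siADAR1 #2 was again highest. The log2FC was 0.75 (SE 0.12, adjusted p = 0.00634) and 1.20 (SE 0.12, adjusted p = 0.000488), and the call with siADAR1 #1 was lost without siControl replicate 1 (adjusted p = 0.0575). CARS1 (ENSG00000110619, chr11:3000922-3057613, minus strand), the cytosolic cysteinyl enzyme, had 5227 and 4730 normalized counts in siControl, against 7090 and 8243 with siADAR1 #1 and 8133 and 7954 with siADAR1 #2. All 4 siADAR1 libraries were above both siControl libraries, and the siADAR1 groups overlapped each other. Its log2FC was 0.62 (SE 0.12, adjusted p = 0.0127) and 0.69 (SE 0.12, adjusted p = 0.00415). The CARS1 call with siADAR1 #1 was lost without siControl replicate 1 (adjusted p = 0.0616) and without siControl replicate 2 (adjusted p = 0.076).

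Of all genes tested, 1.79% were upregulated with each siRNA and 3.41% were downregulated with each. The member downregulated with each was FARSB (ENSG00000116120, chr2:222566899-222656092, minus strand), the beta subunit of the cytosolic phenylalanyl enzyme, which is a tetramer of FARSA and FARSB chains. It had 4087 and 3884 normalized counts in siControl, against 2207 and 2860 with siADAR1 #1 and 2184 and 2446 with siADAR1 #2, so every siADAR1 library was below both siControl libraries. Its log2FC was -0.66 (SE 0.15, adjusted p = 0.0212) and -0.78 (SE 0.15, adjusted p = 0.00654). The call with siADAR1 #1 was lost without siControl replicate 1 (adjusted p = 0.128), siControl replicate 2 (adjusted p = 0.0921) or siADAR1 #1 replicate 1 (adjusted p = 0.101). The call with siADAR1 #2 was lost without siControl replicate 1 (adjusted p = 0.057). FARSA, the alpha subunit, had 4423 and 3952 normalized counts in siControl, against 3484 and 3682 with siADAR1 #1 and 3520 and 3369 with siADAR1 #2. FARSA was also below siControl in every siADAR1 library, but its log2FC of -0.22 and -0.28 was not called with either siRNA (adjusted p = 0.225 and 0.108).

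**Figure D2:**
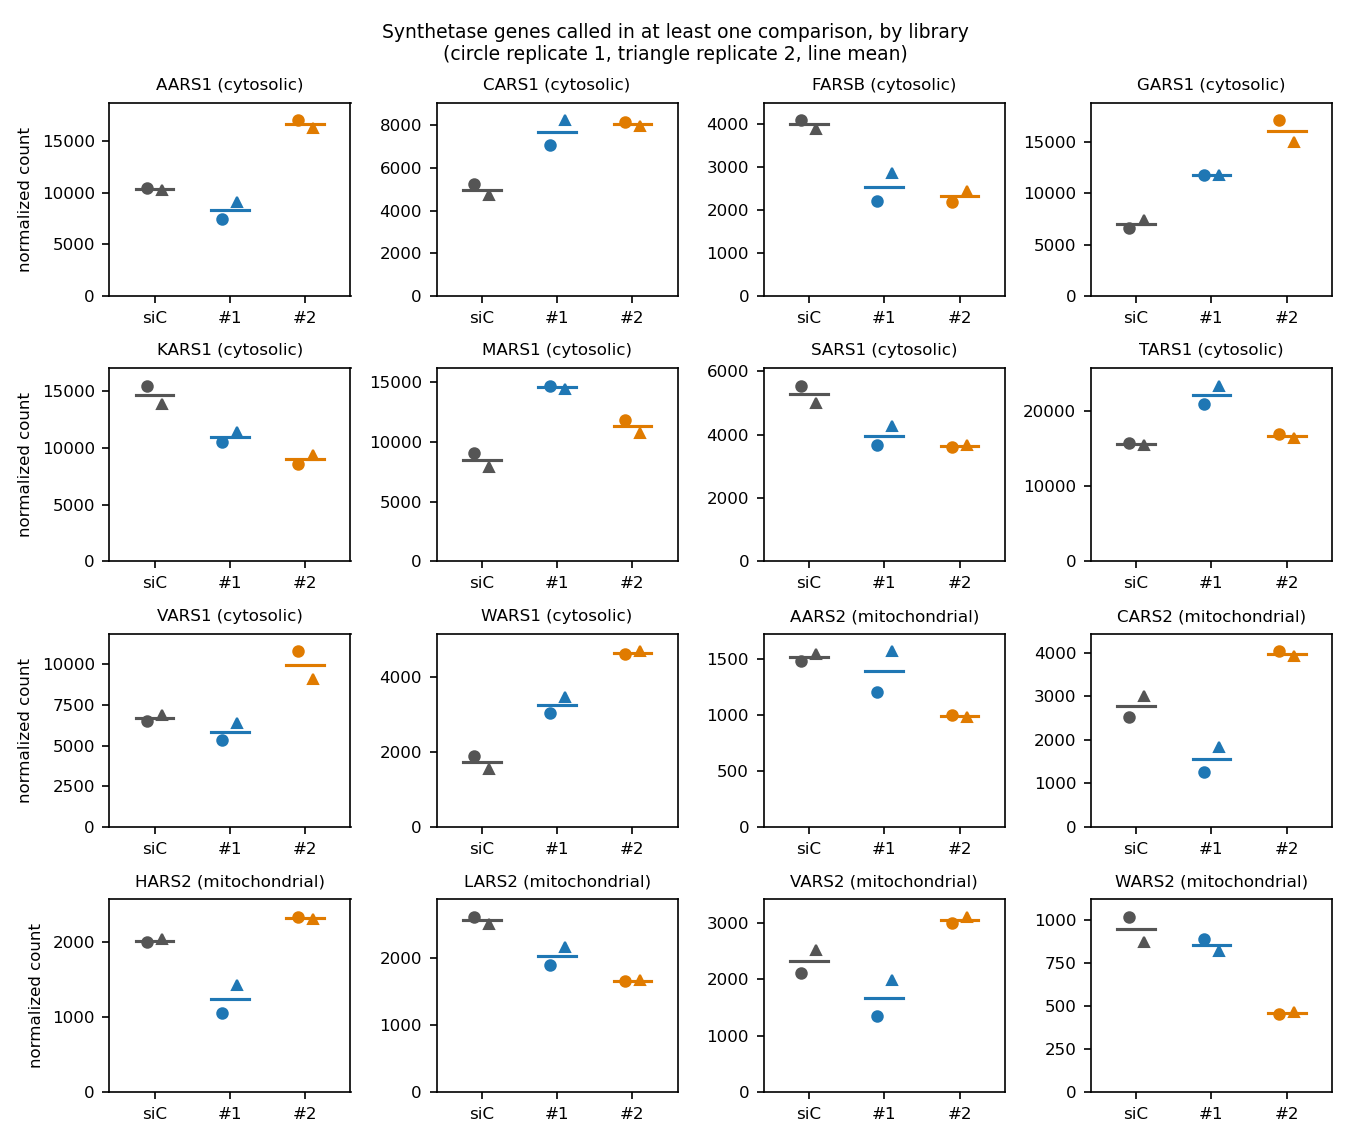
Normalized count (vertical axes, linear from 0, with a separate range in each panel) of the 16 synthetase genes called in at least 1 comparison, in siControl (siC), siADAR1 #1 and siADAR1 #2, with a circle for replicate 1, a triangle for replicate 2 and a line at the group mean. WARS1, GARS1 and CARS1 lie higher and FARSB lower in all 4 siADAR1 libraries, while AARS1 and CARS2 lie on opposite sides of siControl with the 2 siRNAs.

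The remaining upregulated members were called with 1 of the siRNAs, and whether the siRNAs differed was tested apart. MARS1 (chr12:57475445-57517569, plus strand), the methionyl enzyme of the multi-synthetase complex, had 9033 and 7888 normalized counts in siControl, against 14688 and 14437 with siADAR1 #1 and 11807 and 10765 with siADAR1 #2. Its groups did not overlap, with siADAR1 #1 the highest. Its log2FC was 0.79 (SE 0.11, adjusted p = 0.00517) with siADAR1 #1, and 0.42 (adjusted p = 0.0275) with siADAR1 #2, which is short of the 0.5 limit and was called without siControl replicate 1 (adjusted p = 0.0403). The difference between the siRNAs was 0.37 (adjusted p = 0.0364) and was not called. Exons of other genes, among them the stress factor DDIT3, cover 13.3% of the exon bases of MARS1, and the strand setting of the read counting is not given in the sources used here. TARS1 (chr5:33440696-33468091, plus strand), the cytosolic threonyl enzyme, had 15692 and 15446 normalized counts in siControl, against 20924 and 23340 with siADAR1 #1 and 16944 and 16347 with siADAR1 #2. The siADAR1 #1 libraries were clearly apart and those of siADAR1 #2 were just above siControl. The log2FC of TARS1 was 0.51 (SE 0.10, adjusted p = 0.0161) and 0.10 (adjusted p = 0.539), and the first was lost without siControl replicate 1, siControl replicate 2 or siADAR1 #1 replicate 2 (adjusted p = 0.0751, 0.0708 and 0.0628).

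AARS1 and VARS1, the cytosolic alanyl and valyl enzymes, were upregulated with siADAR1 #2. AARS1 (ENSG00000090861, chr16:70251983-70289707, minus strand) had 10484 and 10254 normalized counts in siControl, against 7486 and 9092 with siADAR1 #1 and 17061 and 16253 with siADAR1 #2. The siADAR1 #1 libraries were below siControl and the siADAR1 #2 libraries above it. The log2FC was -0.33 (SE 0.12, adjusted p = 0.101) with siADAR1 #1 and 0.68 (SE 0.12, adjusted p = 0.00473) with siADAR1 #2. VARS1 (chr6:31777518-31795752, minus strand) had 6492 and 6860 normalized counts in siControl, against 5325 and 6394 with siADAR1 #1 and 10800 and 9092 with siADAR1 #2. Its siADAR1 #2 libraries were above all the others. The log2FC was -0.19 (adjusted p = 0.371) and 0.57 (SE 0.14, adjusted p = 0.0163), and the second was lost without siControl replicate 1, siControl replicate 2 or siADAR1 #2 replicate 1 (adjusted p = 0.0952, 0.0608 and 0.121).

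The lysyl and seryl enzymes were downregulated with siADAR1 #2. KARS1 (chr16:75627474-75648643, minus strand), the lysyl enzyme of both compartments and a member of the complex, had 15478 and 13837 normalized counts in siControl, against 10515 and 11406 with siADAR1 #1 and 8603 and 9372 with siADAR1 #2. All 4 siADAR1 libraries were below siControl, with those of siADAR1 #2 lowest. Its log2FC was -0.42 (adjusted p = 0.0393), short of the limit, and -0.70 (SE 0.11, adjusted p = 0.00313). SARS1 (chr1:109213918-109238182, plus strand), the cytosolic seryl enzyme, had 5553 and 5016 normalized counts in siControl, against 3662 and 4263 with siADAR1 #1 and 3612 and 3663 with siADAR1 #2. Its siADAR1 libraries were also all below siControl, at a log2FC of -0.42 (adjusted p = 0.0518) and -0.54 (SE 0.12, adjusted p = 0.0139). The call of SARS1 with siADAR1 #2 was lost without siControl replicate 1, siADAR1 #2 replicate 1 or siADAR1 #2 replicate 2 (adjusted p = 0.0907, 0.0783 and 0.0557) and after quantile normalization or voom (log2FC -0.40 and -0.37), and with siADAR1 #1 the gene was called without siADAR1 #1 replicate 2 (adjusted p = 0.0401).

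The other 9 cytosolic members were not called with either siRNA. EPRS1 (log2FC 0.13 and 0.18), which carries the glutamyl and prolyl activities on a single chain, LARS1 (-0.23 and 0.08), QARS1 (-0.34 and 0.09) and YARS1 (0.21 and 0.03) were far from a call with each siRNA. IARS1, the isoleucyl enzyme, was the most abundant member by normalized count and had a log2FC of -0.36 (adjusted p = 0.0553) and -0.09. NARS1, the asparaginyl enzyme, had 8604 and 9076 normalized counts in siControl, against 11254 and 12619 with siADAR1 #1 and 9939 and 10297 with siADAR1 #2. Its libraries did not overlap between groups, yet its log2FC of 0.43 (adjusted p = 0.0303) and 0.20 (adjusted p = 0.219) was below the limit. NARS1 was called with siADAR1 #1 after median-centring, quantile normalization or voom (log2FC 0.58, 0.50 and 0.51). RARS1, the arginyl enzyme of the complex, had a log2FC of 0.40 (adjusted p = 0.0239) and HARS1, the histidyl enzyme, one of -0.45 (adjusted p = 0.0157) with siADAR1 #2, so both passed the test but not the limit, and RARS1 was called after quantile normalization or voom (0.55 and 0.58). Within the multi-synthetase complex, 1 of 7 enzymes was called with each siRNA, MARS1 up with siADAR1 #1 and KARS1 down with siADAR1 #2. Among the 12 cytosolic members outside it, 4 were upregulated and 1 downregulated with siADAR1 #1, and 5 and 2 with siADAR1 #2. Beside the 16.8% and 26.6% of all genes that were called, nothing particular to the complex is read from these small counts. The 6 genes whose promoter windows are printed above were a mixed set: CARS1 was upregulated with each siRNA, MARS1 and TARS1 with siADAR1 #1, AARS1 with siADAR1 #2, and IARS1 and NARS1 with neither.

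On the mitochondrial side the downregulated genes differed by siRNA. CARS2 (chr13:110641412-110713603, minus strand), the mitochondrial cysteinyl enzyme, had 2534 and 3011 normalized counts in siControl, against 1265 and 1843 with siADAR1 #1 and 4044 and 3923 with siADAR1 #2. The siRNAs lay on opposite sides of siControl, with no overlap. The log2FC was -0.85 (SE 0.19, adjusted p = 0.0189) with siADAR1 #1 and 0.53 (SE 0.19, adjusted p = 0.0683) with siADAR1 #2, and in a fit that paired libraries by replicate number (a block) the latter was called as upregulated (adjusted p = 0.0309). Without siADAR1 #1 replicate 1 or replicate 2 it was also called (adjusted p = 0.0197 each). The same call was made after median-centring, quantile normalization or voom (adjusted p = 0.0421, 0.0231 and 0.0239). A limma fit of only the 4 libraries compared called it as well (adjusted p = 0.0187). The call with siADAR1 #1 was lost without siControl replicate 1, siControl replicate 2 or siADAR1 #1 replicate 1 (adjusted p = 0.0794, 0.121 and 0.0744). HARS2 (chr5:140691430-140699305, plus strand), the mitochondrial histidyl enzyme, which is transcribed head to head with HARS1, had 2003 and 2040 normalized counts in siControl, against 1063 and 1429 with siADAR1 #1 and 2343 and 2308 with siADAR1 #2. Its siADAR1 #1 libraries were lower than all the others. The log2FC was -0.71 (SE 0.16, adjusted p = 0.0202) and 0.20 (adjusted p = 0.386), and the first was lost without siControl replicate 1, siControl replicate 2 or siADAR1 #1 replicate 1 (adjusted p = 0.11, 0.104 and 0.0844). The HARS1 and HARS2 spans overlap at their starts. Exons of all other annotated genes, each other's included, cover 8.5% of the exon bases of HARS1 and 7.0% of those of HARS2. FARS2, the mitochondrial phenylalanyl enzyme, had 712 and 677 normalized counts in siControl, against 323 and 546 with siADAR1 #1 and 591 and 624 with siADAR1 #2. It was below siControl in every siADAR1 library, at a log2FC of -0.72 (adjusted p = 0.0775) with siADAR1 #1, which was called in the blocked fit (adjusted p = 0.0485) and without siADAR1 #1 replicate 2 (adjusted p = 0.0087).

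With siADAR1 #2, WARS2, LARS2 and AARS2 were downregulated. WARS2 (chr1:119031216-119140654, minus strand), the mitochondrial tryptophanyl enzyme, had 1019 and 870 normalized counts in siControl, against 888 and 822 with siADAR1 #1 and 454 and 467 with siADAR1 #2. The siADAR1 #2 libraries were well below the other 4, and those of siADAR1 #1 overlapped siControl. Its log2FC was -0.14 (adjusted p = 0.582) and -1.03 (SE 0.15, adjusted p = 0.00229), the largest fall against siControl of any member. LARS2 (chr3:45388561-45554726, plus strand), the mitochondrial leucyl enzyme, had 2616 and 2512 normalized counts in siControl, against 1900 and 2167 with siADAR1 #1 and 1654 and 1673 with siADAR1 #2. It was lower in all 4 siADAR1 libraries, at a log2FC of -0.34 (adjusted p = 0.101) and -0.62 (SE 0.12, adjusted p = 0.00767), and the second was lost without siControl replicate 1 or siADAR1 #2 replicate 1 (adjusted p = 0.0572 and 0.0501) and after quantile normalization or voom (log2FC -0.48 and -0.45). AARS2 (chr6:44298731-44313347, minus strand), the mitochondrial alanyl enzyme, had 1480 and 1542 normalized counts in siControl, against 1206 and 1566 with siADAR1 #1 and 1000 and 978 with siADAR1 #2. Its log2FC with siADAR1 #2 was -0.61 (SE 0.16, adjusted p = 0.0218), and the call was lost when any of the 4 libraries of that comparison was left out (adjusted p from 0.0819 to 0.106) and after quantile normalization or voom (log2FC -0.48 and -0.44). The other 11 mitochondrial members were not called with either siRNA. IARS2 (0.09 and 0.04), MARS2 (-0.14 and 0.10) and RARS2 (0.15 and -0.07) were near siControl with each, and TARS2, SARS2 and EARS2 were lower with each (log2FC from -0.31 to -0.48) without a call, TARS2 being called with siADAR1 #1 when siADAR1 #1 replicate 2 was left out (adjusted p = 0.0419). NARS2 (-0.26 and -0.25), PARS2 (0.14 and -0.31) and YARS2 (0.14 and -0.35) were not called either. SARS2 and VARS2 share 48.2% and 63.0% of their exon bases with another annotated gene on the same strand, so their reads could be divided between the annotations. VARS2 had 2114 and 2528 normalized counts in siControl, against 1348 and 1990 with siADAR1 #1 and 2998 and 3111 with siADAR1 #2, and its siADAR1 #1 value of -0.50 was called without siADAR1 #1 replicate 2 (adjusted p = 0.0185).

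As a group, cytosolic genes had a median log2FC of -0.02 with siADAR1 #1 and 0.10 with siADAR1 #2, while mitochondrial genes had -0.28 with each, beside -0.02 and -0.01 over all genes tested. The difference between the sides was 0.26 with siADAR1 #1 and 0.38 with siADAR1 #2. The mean log2 value of the cytosolic genes minus that of the mitochondrial genes was 2.44 and 2.40 in siControl, 2.83 and 2.71 with siADAR1 #1 and 2.81 and 2.77 with siADAR1 #2. All 4 siADAR1 libraries were above both siControl libraries by this measure. Of the 19 cytosolic genes, 8 were above siControl in all 4 siADAR1 libraries and 5 below, where 12.0% and 16.6% of all genes were above and below. Of the 16 mitochondrial genes, 0 were above and 6 below. The cytosolic sum was 173854 and 164689 normalized counts in siControl, and 171048 to 196342 in siADAR1, so these sums overlapped. The mitochondrial sum was 29988 and 29135 in siControl, and 24435 to 28833 in siADAR1, lower in all 4. By share of the reads on genes, the mitochondrial side was instead higher with siADAR1 #2. That share was 0.0560% and 0.0618% in siControl, 0.0522% and 0.0561% with siADAR1 #1 and 0.0639% in each siADAR1 #2 library. The cytosolic share was 0.325% and 0.349% in siControl and 0.366% to 0.435% in siADAR1, higher in all 4.

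For 13 amino acids the cytosolic and mitochondrial gene could be set against each other in the same library. The cytosolic gene gained on the mitochondrial one in 11 of 13 pairs with siADAR1 #1 and in 10 with siADAR1 #2. The median change over the pairs was 0.30 and 0.38 on the log2 scale. With siADAR1 #1 the gain was near 0 for arginine (0.02), serine (0.04) and tyrosine (0.07), and 0.10 for leucine. These changes within pairs were not tested. Tryptophan had the widest change with siADAR1 #2, and cysteine with siADAR1 #1. WARS1 exceeded WARS2 by 0.89 and 0.82 on the log2 scale in siControl, 1.77 and 2.07 with siADAR1 #1 and 3.33 and 3.32 with siADAR1 #2, so the gap grew by 1.07 and 2.47. For cysteine it grew by 1.47 with siADAR1 #1 and 0.17 with siADAR1 #2. For alanine it fell by 0.19 with siADAR1 #1 and grew by 1.29 with siADAR1 #2. Histidine grew by 0.69 and fell by 0.65, and isoleucine fell with both, by 0.45 and 0.13.

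**Figure D3:**
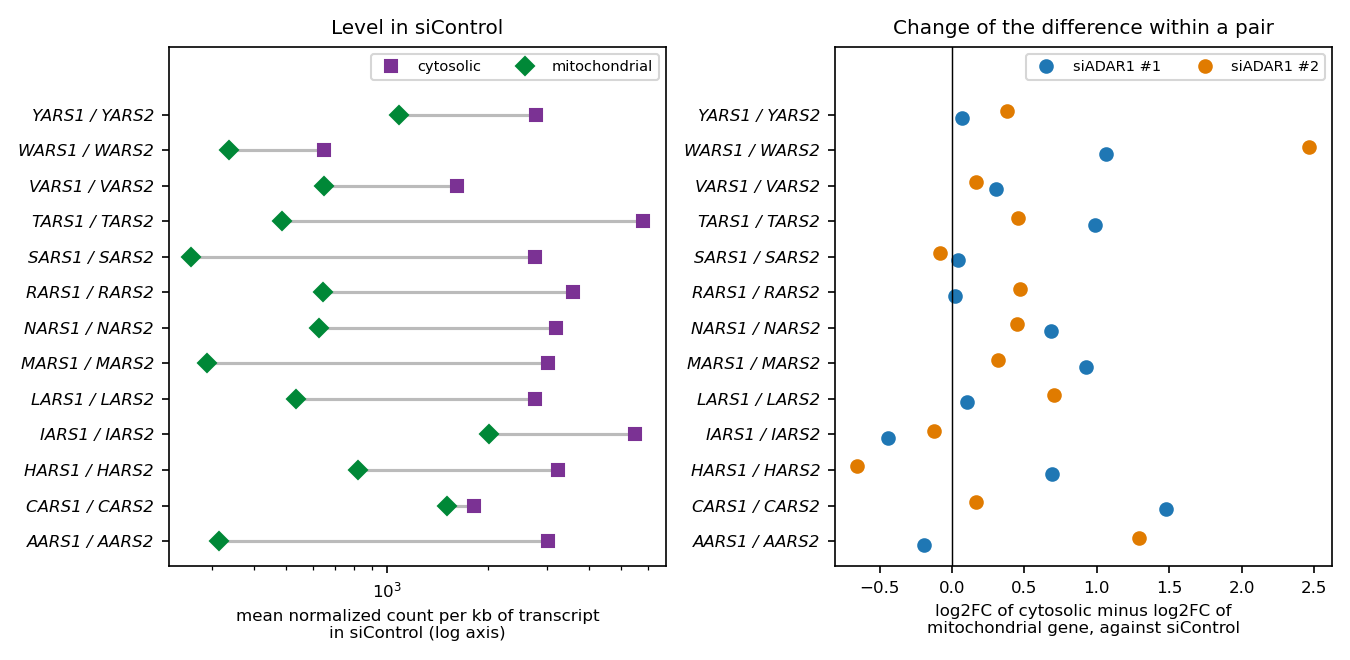
On the left, the mean siControl level of the cytosolic (square) and mitochondrial (diamond) gene of 13 amino acids, in normalized counts per kilobase of transcript on a log axis. On the right, the log2FC of the cytosolic gene minus that of its mitochondrial partner for each siRNA, where tryptophan with siADAR1 #2 lies farthest from 0, at 2.47, cysteine is farthest with siADAR1 #1, at 1.47, and 11 and 10 of the 13 points lie above 0.

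Between the siRNAs, 7 members differed, 1 higher and 6 lower with siADAR1 #1 than with siADAR1 #2, where 32.8% of all genes were called (16.1% higher and 16.7% lower). CARS2 differed by -1.38 (SE 0.19, adjusted p = 0.00116), AARS1 by -1.01 (SE 0.12, adjusted p = 0.000707), HARS2 by -0.91 (SE 0.16, adjusted p = 0.00329), VARS2 by -0.90 (SE 0.19, adjusted p = 0.00833) and VARS1 by -0.76 (SE 0.14, adjusted p = 0.00373). WARS1 was also lower, by -0.51 (adjusted p = 0.022), a call lost without siADAR1 #1 replicate 1, siADAR1 #2 replicate 1 or siADAR1 #2 replicate 2 (adjusted p = 0.105, 0.0846 and 0.0891). WARS2 was the 1 higher member, by 0.89 (SE 0.15, adjusted p = 0.0033). GARS1, YARS2, QARS1, FARS2 and AARS2 were called in this comparison when 1 of the libraries was left out. With the 4 siADAR1 libraries treated as 1 group against siControl, 0 members were called by limma, as were 0 genes in all, although 14.0% of all genes had an unadjusted p under 0.05. The average of both siRNA changes, taken in the fit with 3 groups, called 7 members, where it called 17.2% of all genes: CARS1, GARS1, MARS1 and WARS1 up, and FARSB, KARS1 and WARS2 down.

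Genes of the same pathway were described from lists written from general knowledge with earlier results of these data known. Their counts are therefore a description and not independent support. Of 30 genes of ATF4 and its known targets outside the synthetases, 16 were upregulated and 1 downregulated with siADAR1 #1, and 15 and 1 with siADAR1 #2, with a median log2FC of 0.55 and 0.60. Over all genes tested, 6.18% were upregulated and 10.6% downregulated with siADAR1 #1, and 11.1% and 15.5% with siADAR1 #2. The median log2FC over all genes was -0.02 and -0.01. Asparagine synthetase ASNS had 1262 and 1356 normalized counts in siControl, against 3460 and 4265 with siADAR1 #1 and 3732 and 3542 with siADAR1 #2, and the pseudokinase TRIB3 had a log2FC of 1.36 and 1.35. ATF4 itself had 13264 and 11790 normalized counts in siControl, against 17704 and 19028 with siADAR1 #1 and 14632 and 13132 with siADAR1 #2. Its RNA was thus called with siADAR1 #1 (log2FC 0.55, adjusted p = 0.0164) and not with siADAR1 #2 (0.15, adjusted p = 0.38). EIF2AK4, the kinase GCN2 that senses uncharged tRNA, was downregulated with siADAR1 #1 (-0.54, adjusted p = 0.0164) and not called with siADAR1 #2 (-0.14, adjusted p = 0.407).

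Of the 3 scaffold proteins of the multi-synthetase complex, 2 were downregulated with siADAR1 #2, where 15.5% of all genes were. With siADAR1 #1, 0 of the 3 were called, where 16.8% of all genes were. AIMP2 had 1612 and 1320 normalized counts in siControl, against 1358 and 1574 with siADAR1 #1 and 794 and 782 with siADAR1 #2, and EEF1E1 had 3186 and 3108, 2949 and 3348, and 2103 and 2029. Both were lowest with siADAR1 #2, at a log2FC of -0.89 (adjusted p = 0.00431) and -0.61 (adjusted p = 0.00729), and both differed between the siRNAs (adjusted p = 0.00331 and 0.00587). AIMP1 was not called (-0.27 and -0.26). WARS1 was also read against 24 interferon-stimulated genes, because it is one in other cells. Of these, 0 were called with siADAR1 #1 and 3 were upregulated with siADAR1 #2, where 6.18% and 11.1% of all genes were upregulated. Their median log2FC was 1.04 and 1.65, with 22 and 20 of the 24 positive, beside -0.02 and -0.01 over all genes. Their summed level was higher in replicate 2 than in replicate 1 of every group, and highest with siADAR1 #2 within each replicate number. It was 14145 and 25941 normalized counts in siControl, 16403 and 70588 with siADAR1 #1 and 25162 and 133577 with siADAR1 #2. WARS1 in replicate 2 was 0.818, 1.14 and 1.02 times its level in replicate 1 in the 3 groups. The part of the interferon genes in the WARS1 result was not tested.

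**Figure D4:**
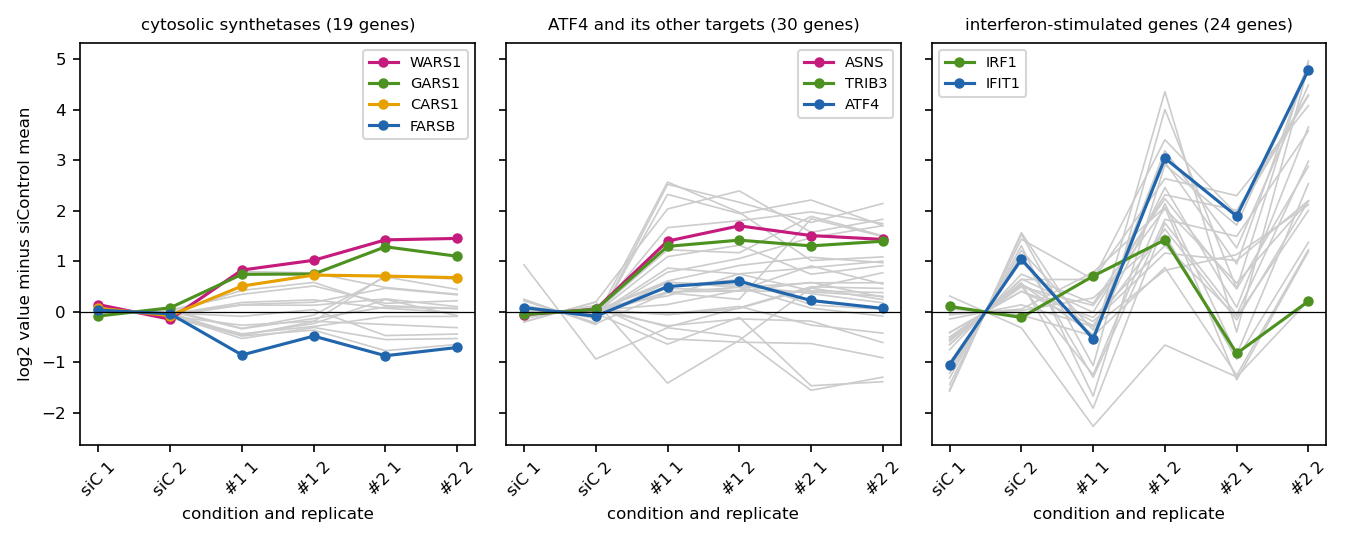
Log2 value minus the mean of siControl (vertical axis) in each of the 6 libraries, siControl (siC), siADAR1 #1 and siADAR1 #2 with replicates 1 and 2, for the 19 cytosolic synthetases, 30 genes of ATF4 and its other targets and 24 interferon-stimulated genes. Grey lines join the values of a gene and coloured lines are the genes in the legends, and ASNS and TRIB3 are high in all 4 siADAR1 libraries like WARS1 and GARS1, while IFIT1 is higher in replicate 2 than in replicate 1 of every group.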

How the data were processed

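Poly(A)+ RNA from 6 Cal62 libraries, 2 per transfection, was sequenced by the authors with 75-bp paired-end reads, counted on genes of GRCh38 with featureCounts in bcbio-nextgen and normalized with DESeq2. FastQC and Salmon are also named in the submitters' processing notes. The deposited unit is a variance-stabilized log2 value per gene, made by the authors from normalized counts. The labels give 1 sample per transfection, and the table has 2 columns for each, which were taken as the biological replicates of the methods and matched to the labels by name. Undoing the transformation gave whole reads within a tolerance of 0.1, and these served for normalized counts and depth. The 35 synthetase genes were matched by Ensembl identifier (GENCODE release 44).

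Two-sided tests on these log2 values used limma 3.58.1 under R 4.3.3, with a trend in eBayes, in a fit of 3 groups (3 residual degrees of freedom) and in a fit with the siADAR1 libraries as 1 group (4 residual degrees of freedom). Genes with a mean log2 value of at least 3.32, a normalized count of 7.617, were tested, and p-values were adjusted by Benjamini-Hochberg over all 20858 of them. The limits for a call, 0.05 for the adjusted p-value and 0.5 for the log2FC in either direction, were those of the study. Levels were compared between genes per length. Counting error limits low values, where 3 reads is the limit that a count of 0 allows, and the spread of 2 libraries limits the rest.

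Libraries with the same replicate number deviated together, with correlations of 0.106, 0.110 and 0.162 between the groups, and the pairing rests on these values and not on the labels. Blocked values are given where they changed a call. Alternatives were other filters, median-centring, quantile normalization, robust eBayes and eBayes without the trend, the block, only the libraries compared, voom on whole reads, log2 of the normalized count plus 1, the average of both siRNA changes, and each library left out. The steps were tested on simulated data. All members are named at least once, with full values for those called, and genes outside the family are named from the lists. The members, lists, tests and motifs were chosen with earlier results of these data known. Protein sequences were not used here.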

Additional observations from a re-analysis of the deposited data

Results flagged for a closer look

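Between the siRNAs, 7 of the 35 members were called, where 32.8% of all genes were. For 5 of them the log2FC values against the shared siControl libraries had opposite signs, a share not counted over all genes. In the fit with 3 groups, AARS1 and VARS1 were called against siControl only with siADAR1 #2, and CARS2 and HARS2 only with siADAR1 #1. VARS2 was called with neither. The difference, siADAR1 #1 minus siADAR1 #2, was -1.38 for CARS2, -1.01 for AARS1, -0.91 for HARS2, -0.90 for VARS2 and -0.76 for VARS1 (limma, log2 scale). In each, both siADAR1 #1 libraries were lower than both siADAR1 #2 libraries. All 5 differences were called under each of the 16 alternatives, those that left out a library included. Alanine, cysteine, histidine and valine are the amino acids concerned, and for valine the cytosolic and the mitochondrial gene are both among the 5. Most of the exon bases of VARS2, 63.0%, also belong to another annotated gene on the same strand.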

How the results depend on the processing

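No synthetase call turned its direction under any alternative run. With siADAR1 #1, 8 members were called, 2 with eBayes without a trend, and 2 to 11 with 1 library left out (lowest without siControl replicate 1, highest without siADAR1 #1 replicate 2). The share of all genes called fell as well, from 16.8% to 6.46% without a trend, and was 1.88% to 17.6% with 1 library left out. With siADAR1 #2, 11 were called, and 7 to 12 with 1 library left out. Between the siRNAs, 7 were called, 11 with median-centred libraries, and 6 to 9 with 1 library left out. With both siRNAs as 1 group 0 were called, and 7 by the average of both siRNA changes. The difference between the median log2FC of the cytosolic and mitochondrial genes with siADAR1 #2 was 0.38, and 0.287 to 0.431 with 1 library left out. Between the siRNAs it was -0.05, and -0.111 to 0.095. The replicate block gave 9, 12 and 7 calls in the 3 comparisons, adding FARS2 with siADAR1 #1 and CARS2 with siADAR1 #2, and changed no other call.

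Against siControl, the calls present under all 16 alternatives were MARS1 and WARS1 with siADAR1 #1, and AARS1, CARS1, GARS1, KARS1, WARS1 and WARS2 with siADAR1 #2. Between the siRNAs they were AARS1, VARS1, CARS2, HARS2, VARS2 and WARS2. Without a trend, the calls of CARS1, FARSB, GARS1, TARS1, CARS2 and HARS2 with siADAR1 #1, of SARS1, VARS1 and AARS2 with siADAR1 #2 (adjusted p = 0.0658, 0.076 and 0.0671), and of WARS1 between the siRNAs (adjusted p = 0.0778) were lost. Between the siRNAs, median-centring added AARS2, HARS1, TARS1, PARS2 and YARS2 and lost WARS1, and quantile normalization added GARS1, QARS1 and PARS2. MARS1, RARS1 and CARS2 were called with siADAR1 #2 after quantile normalization or voom, and CARS2 also after median-centring. Median-centring moved the median log2FC of all genes with siADAR1 #1 from -0.02 to 0.12, and voom moved that with siADAR1 #2 to 0.16. For the other values the cause was not tested. Depth was lowest for PARS2, and each member had 157 reads or more in every library, and the number of libraries, 2 a group, also limits the precision.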

Other observations

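The machinery that uses charged mitochondrial tRNA was also read. Of 78 mitochondrial ribosomal protein genes, 2 were upregulated and 8 downregulated with siADAR1 #1, and 0 and 43 with siADAR1 #2, with a median log2FC of -0.03 and -0.56. Over all genes tested, 6.18% were upregulated and 10.6% downregulated with siADAR1 #1, and 11.1% and 15.5% with siADAR1 #2. The median log2FC over all genes was -0.02 and -0.01. The counts with siADAR1 #1 were thus not above the shares over all genes. Between the siRNAs, 38 were higher and 2 lower with siADAR1 #1, where 16.1% and 16.7% of all genes were. MRPL24, MRPL37, MRPS2 and MRPS6 were downregulated with each, where 3.41% of all genes were. Of 15 factors of mitochondrial translation, 2 were upregulated with siADAR1 #1, and 1 was upregulated and 2 were downregulated with siADAR1 #2. These small counts stand beside the same shares over all genes. MTRF1L, a mitochondrial release factor, was upregulated with each (log2FC 0.66 and 0.61). Mitochondria make glutaminyl-tRNA with an amidotransferase in place of a synthetase, and its subunit QRSL1 had a log2FC of 0.27 with siADAR1 #1 and -0.79 with siADAR1 #2 (adjusted p = 0.00764). Its subunit GATC was upregulated with siADAR1 #1 (0.59, adjusted p = 0.0144) and had -0.47 with siADAR1 #2, short of the limit. MTFMT, which formylates the mitochondrial initiator methionyl-tRNA, had -0.41 and -0.83, the second being called (adjusted p = 0.00665).

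In the cytosol, 0 of 5 elongation factor genes were upregulated with either siRNA, where 6.18% and 11.1% of all genes were. EEF1G was downregulated with siADAR1 #1, where 10.6% of all genes were. Of 9 factors that edit or check aminoacyl-tRNA, 0 were called with siADAR1 #1, where 16.8% of all genes were. With siADAR1 #2, 1 was upregulated and 2 were downregulated, where 11.1% and 15.5% of all genes were. Of the regulators that reverse eIF2 phosphorylation, PPP1R15A had a log2FC of 0.69 and 1.30, and PPP1R15B had 0.69 and -0.99. A motif of the factor NRF1, searched on both strands, was in 3 of 16 cytosolic and 3 of 14 mitochondrial synthetase promoters, against 6.28% of all promoters. The letters TTCNNNGAA of the interferon element GAS were in 2 and 2 (7.88% of all), and the interferon element ISRE was in 0 and 1 (3.65% of all), and WARS1 held neither in the window.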
